A study of Homo sapiens and Mus musculus with 92 samples.

Results

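The TALE (3-amino-acid loop extension) homeobox genes were followed in HEL cells, an erythroleukemia line of human origin in which MLL1 is not rearranged, after knockdown (KD) of MLL1 or of AF9. The genes MEIS1, MEIS2, MEIS3, PKNOX1, PBX2, PBX3, PBX4, TGIF1 and TGIF2 were taken from both RNA-seq count tables by exact match of the gene symbol, and 9 of 9 were found among 28103 listed genes. MLL1, encoded by KMT2A, was knocked down with MLL1 shRNA #1 in 3 libraries and set against 3 control libraries, and AF9, encoded by MLLT3, was knocked down with AF9 shRNA #1 in 2 libraries and set against 2 control libraries of its own. The labels give the control cells as WT. The study's methods describe lentiviral transduction with a control shRNA and puromycin selection, but do not name RNA-seq among the uses of those cells, so whether the control libraries came from transduced cells is not stated. The RNA-seq libraries had 1 shRNA for each target. Nothing in the labels says that the replicates were separate cultures, so the p values measure the spread between these libraries, which may be technical.

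TALE proteins are homeodomain transcription factors with 3 extra residues between the first and second helices of the homeodomain. The MEIS and PREP (PKNOX) proteins bind PBX proteins, and these dimers bind DNA together with HOX proteins. MEIS1 is known as a partner of HOXA9 in hematopoietic stem cells and acute leukemia and as a gene kept active by MLL1 and by MLL fusion proteins. The TGIF proteins, by contrast, are repressors that bind SMAD proteins and limit the response to TGF-beta.

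MEIS1 is at chr2:66433452-66573869 on the plus strand of hg38 (GENCODE version 44) and MEIS2 at chr15:36889204-37101299 on the minus strand. The sequence before the MEIS1 start is shown because MEIS1 was the 1 member whose MLL1 KD libraries all lay below control and because the CXXC domain of MLL1 recognizes CpG that carry no methylation. It comes from RefSeq (GRCh38.p14) and covers the 250 bases before the start that RefSeq gives, chr2:66434875-66435124 on the plus strand. The GENCODE gene starts further upstream, so the window lies within the gene as GENCODE draws it. Each CpG in the window is in capitals.
MEIS1: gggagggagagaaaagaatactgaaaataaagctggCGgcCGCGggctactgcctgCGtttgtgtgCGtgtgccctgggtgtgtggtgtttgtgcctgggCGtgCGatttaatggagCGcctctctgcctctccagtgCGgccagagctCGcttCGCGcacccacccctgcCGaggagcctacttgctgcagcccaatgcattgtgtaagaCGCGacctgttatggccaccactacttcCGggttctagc
It holds 16 CpG, and 59.0% of 35116 RefSeq promoters of the same length hold fewer (median 11, quartiles 3 and 23). The 18 promoters listed for the 9 members, some of which overlap, hold from 5 to 36 CpG, with 36 in those of PBX3 and PKNOX1. The MEIS and TGIF motif TGACAG, on either strand, is in none of the MEIS1 window, in 3 of these 18 promoters and in 13.0% of all promoters. The HOX-PBX motif TGATNNAT, which neither contains nor is contained in the other, is likewise absent from the MEIS1 window, in 3 of the 18 and in 6.47% of all promoters. No chromatin data were analysed here, so a motif match is only a description of the sequence.

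Total counts were 6966345 to 10380241 per library in the MLL1 experiment and 12278989 to 14232408 in the AF9 experiment. Replicate 1 of the MLL1 experiment stood apart in both groups. Its log2 CPM (counts relative to the library total after edgeR's TMM scaling) differed from those of replicates 2 and 3 by a root mean square of 0.63 to 0.77 over 14393 genes, compared with 0.40 and 0.41 between replicates 2 and 3, and same-numbered control and MLL1 KD libraries deviated together. Results of the MLL1 experiment are therefore given without the replicate number as a block, as fixed in the design, and with it. In the AF9 experiment replicates differed by 0.29 and 0.34.

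The targeted genes were lower in every KD library. KMT2A was at 1321, 1298 and 1256 CPM in control replicates 1, 2 and 3 and at 812, 814 and 833 CPM in MLL1 KD cells. The log2 fold change was -0.66 ± 0.09 (SE), with an adjusted p of 0.072 without the block and 3.49e-07 with it (edgeR quasi-likelihood test, Benjamini-Hochberg). MLLT3 was at 548 and 527 CPM in the controls and at 107 and 92.5 CPM in AF9 KD cells, and its log2 level fell by 2.43 ± 0.11 (adjusted p = 3.24e-08). The mean level of the other target was also lower after each knockdown. KMT2A fell by 0.32 ± 0.09 in AF9 KD cells (adjusted p = 0.020), under the fold threshold, and it did not pass with total counts in place of TMM (0.070) or without control replicate 1 (0.32) or 2 (0.15). MLLT3 was at -0.28 ± 0.16 in MLL1 KD cells (adjusted p = 0.62, and 0.018 with the block). Its libraries overlapped between groups, at 188 to 228 CPM in control and 147 to 206 CPM in MLL1 KD cells.

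The members covered a wide range of levels in control cells, given as TPM (counts per length of the merged exons, scaled to the same total in each library). In the control cells of the MLL1 experiment TGIF2 was at 128 ± 7.97 TPM (SD, n = 3), higher than 95.5% of the listed genes with a length, and MEIS2 at 42.5 ± 1.22. Below them MEIS1 (24.2 ± 3.35), PBX3 (20.5 ± 6.03), PBX2 (18.8 ± 1.85) and PKNOX1 (16.0 ± 2.74) formed a run in which neighbours overlapped between libraries. PBX4 (5.70 ± 2.22) and TGIF1 (2.77 ± 1.04) came next and overlapped, and MEIS3 had at most 3 counts in any library. HEL cells thus contained RNA of 2 MEIS genes, of PBX2 and PBX3, of the PREP gene PKNOX1 and of a predominant TGIF gene.

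In the control cells of the AF9 experiment TGIF2 (124 ± 3.95 TPM, SD, n = 2), MEIS2 (31.7 ± 3.04) and PBX2 (29.2 ± 3.09) were highest, and the libraries of the last pair overlapped. PBX3 (24.6 ± 0.81), PKNOX1 (13.6 ± 0.49), MEIS1 (9.17 ± 0.06), TGIF1 (4.18 ± 0.16) and PBX4 (1.57 ± 0.15) followed, each with both libraries above the next. MEIS1 thus had rank 3 among the members in the control cells of the MLL1 experiment and rank 6 in those of the AF9 experiment. Ranks between genes depend on the length used. The merged exons of MEIS1 cover 10942 bases and the transcript that GENCODE marks as canonical 4566, compared with 7621 and 5300 for PKNOX1. The summed level of the erythroid and megakaryocyte markers also differed between the control cells. It was 5217 to 5751 TPM in the MLL1 experiment and 36755 to 37003 TPM in the AF9 experiment. Most of this gap lay in the fetal globin genes HBG2 (1437 and 24535 TPM) and HBG1 (164 and 9037 TPM). The experiments share no libraries, so each knockdown was compared only with its own controls.

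**Figure D1:**
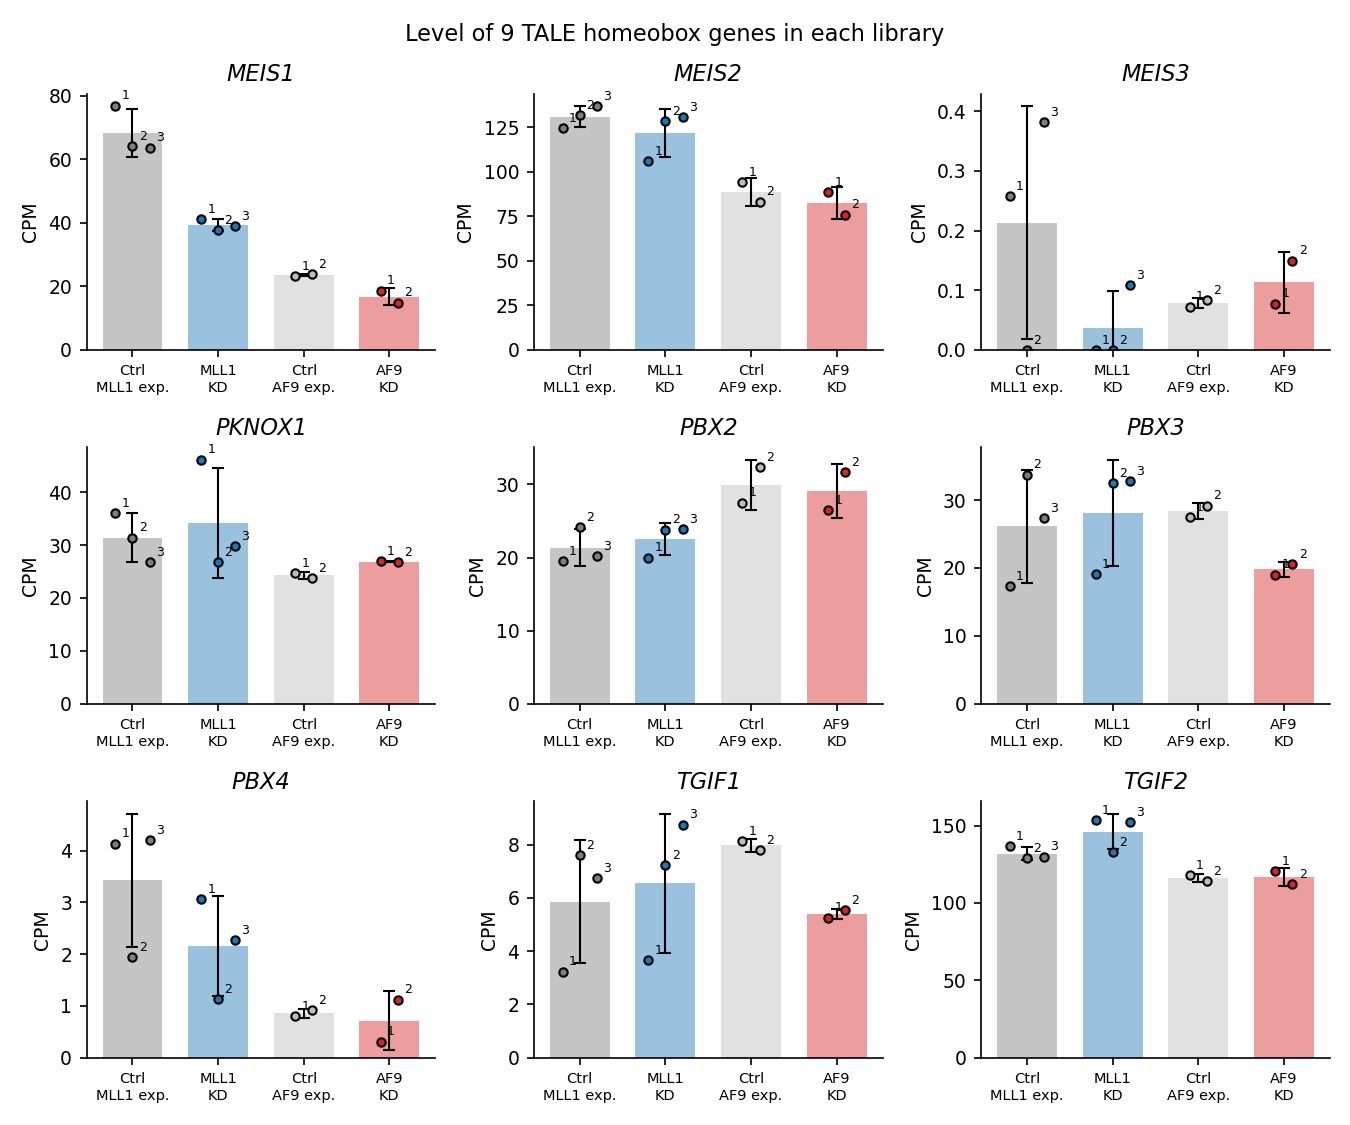
Level of each member (y axis, CPM, one scale per gene) in the control and KD libraries of both experiments (x axis), with bars for the mean, whiskers for the SD and numbered points for the replicates. MEIS1 was lower in all 3 MLL1 KD libraries (37.7 to 41.2 CPM) than in their controls (63.7 to 76.8 CPM), whereas PBX3 and TGIF1 were below control in both AF9 KD libraries and overlapped with control in MLL1 KD cells.

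MEIS1 was lower in MLL1 KD cells. It was at 76.8, 64.2 and 63.7 CPM in control replicates 1, 2 and 3 and at 41.2, 37.7 and 38.9 CPM in the MLL1 KD replicates, so all 3 KD libraries lay below all 3 control libraries. Relative to the control of the same number the KD libraries held 53.6, 58.7 and 61.1%. The log2 fold change was -0.80 (95% confidence interval -1.11 to -0.48), and the adjusted p was 0.12 without the block, so MEIS1 was not called by that fit. With the block the fold change was -0.79 (-1.01 to -0.58, adjusted p = 4.89e-05), past both thresholds for a call, 1.5-fold and an adjusted p of 0.05. DESeq2 without a block gave adjusted p values of 0.00053 and 0.0011, replicates 2 and 3 alone gave -0.74 with an adjusted p of 4.82e-08, and the lowest and highest values over 17 alternatives were 4.82e-08 and 0.56. An exact two-sided permutation test gave p = 0.10, the smallest value that 3 against 3 libraries allow.

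The other 7 members tested overlapped between control and MLL1 KD libraries, and none was called with or without the block. MEIS2, the paralog of MEIS1, was at 124 to 137 CPM in control cells and 106 to 130 CPM in MLL1 KD cells (log2 fold change -0.11, -0.40 to 0.19). PBX2, a widely expressed PBX gene, was at 0.08 (-0.32 to 0.48), although 44.4% of the 31-base stretches of its transcript also occur in other genes, mostly the pseudogene PBX2P1, so that its counts are less certain. TGIF2 was at 129 to 137 CPM in control cells and 133 to 153 CPM in MLL1 KD cells (0.15, -0.12 to 0.41).

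PBX3, a PBX partner of MEIS1 in leukemia, was at 17.3, 33.8 and 27.4 CPM in control replicates 1, 2 and 3 and at 19.1, 32.5 and 32.8 CPM in the MLL1 KD replicates. TGIF1 showed the same order, with 3.23, 7.61 and 6.75 CPM in control cells and 3.66, 7.23 and 8.75 CPM in MLL1 KD cells. For both genes replicate 1 was the lowest of its group, and the differences between replicate numbers were larger than those between control and KD. PKNOX1 was highest in replicate 1 of both groups (36.0 and 46.1 CPM, compared with 26.7 to 31.4 CPM in the others). PBX4, a PBX gene best known in testis, had only 14 to 33 counts in control and 8 to 31 counts in MLL1 KD libraries, and its log2 fold change of -0.64 had an interval from -1.74 to 0.45. With a library left out it ran from -0.98, without MLL1 KD replicate 1, to -0.36, without MLL1 KD replicate 2. MEIS3 had 0 to 3 counts in each library of both experiments and was not tested.

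Of the 8 members that passed the filter on mean TPM, 0 were called in MLL1 KD cells by edgeR without the block, where 0.0625% of 14393 genes were. MEIS1 was the 1 member with an unadjusted p under 0.05, compared with 9.97% of genes, and the 1 member called by DESeq2, which called 1.51% of genes. With the block 1 of 8 was called, where 4.72% of genes were called and 2.5% were called lower. Groups did not overlap for 1 of 8 members and for 17.7% of genes. The median log2 fold change was 0.09 over these 8 members and 0.01 over all genes tested.

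After AF9 knockdown MEIS1 and PBX3 were lower by less than 1.5-fold, and TGIF1 did not pass the test. MEIS1 was at 23.3 and 23.8 CPM in the controls and at 18.6 and 14.9 CPM in AF9 KD cells, and its log2 level fell by 0.49 (-0.81 to -0.18, adjusted p = 0.023). PBX3 was at 27.5 and 29.2 CPM in the controls and at 19.0 and 20.6 CPM in AF9 KD cells, and it fell by 0.52 (-0.80 to -0.24, adjusted p = 0.0092). Both changes passed the adjusted p but were smaller than 1.5-fold, so neither gene was called. TGIF1 was at 8.13 and 7.80 CPM in the controls and at 5.26 and 5.53 CPM in AF9 KD cells, with a log2 fold change of -0.56 ± 0.20 (SE) and an adjusted p of 0.052.

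These 3 genes had AF9 KD libraries that all lay below the control libraries. The smallest p of an exact permutation test of 2 against 2 libraries is 0.333, so no single gene can be tested that way. Fold changes in AF9 KD cells rose with the GC content of the canonical transcript (Spearman's rho 0.49 over 13042 genes, a description). Genes of 41 to 46% GC had a median log2 fold change of -0.12. The exons of MEIS1, PBX3 and TGIF1 have between 42 and 44% GC. With offsets for GC content MEIS1 was at -0.36 (adjusted p = 0.047), PBX3 at -0.40 (adjusted p = 0.021) and TGIF1 at -0.43 (adjusted p = 0.10). MEIS1 was past the adjusted p in neither DESeq2 fit (0.064 and 0.065), nor with total counts in place of TMM (0.058), nor after either control library or AF9 KD replicate 2 was left out (0.090 to 0.11), and without AF9 KD replicate 1 it was at -0.66 (adjusted p = 0.0031) and called. PBX3 was past it in each of 14 alternatives but that without control replicate 2 (0.073).

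The other 5 members tested did not pass the test. MEIS2 was at 94.0 and 83.1 CPM in the controls and 88.6 and 75.8 CPM in AF9 KD cells (log2 fold change -0.11, -0.34 to 0.12). PKNOX1 was at 24.7 and 23.8 CPM in the controls and slightly higher in both AF9 KD libraries, at 26.9 and 26.8 CPM, with a log2 fold change of 0.14 (-0.12 to 0.41, adjusted p = 0.42). PBX2 (-0.04, -0.33 to 0.26) and TGIF2 (0.01, -0.19 to 0.21) overlapped between groups. PBX4 had 11 counts in each control library and 4 and 15 counts in AF9 KD libraries, too few for a direction.

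After AF9 knockdown 0 of 8 members were called by edgeR, where 13.1% of 13331 genes were called, and 0 were called by DESeq2, where 10.1% were. Without the fold threshold 2 of 8 members passed, compared with 29% of genes, and 3 of 8 had an unadjusted p under 0.05, compared with 40.6% of genes. Groups did not overlap for 4 of 8 members and for 66% of genes. The median log2 fold change was -0.18 over the 8 members and 0.01 over all genes.

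**Figure D2:**
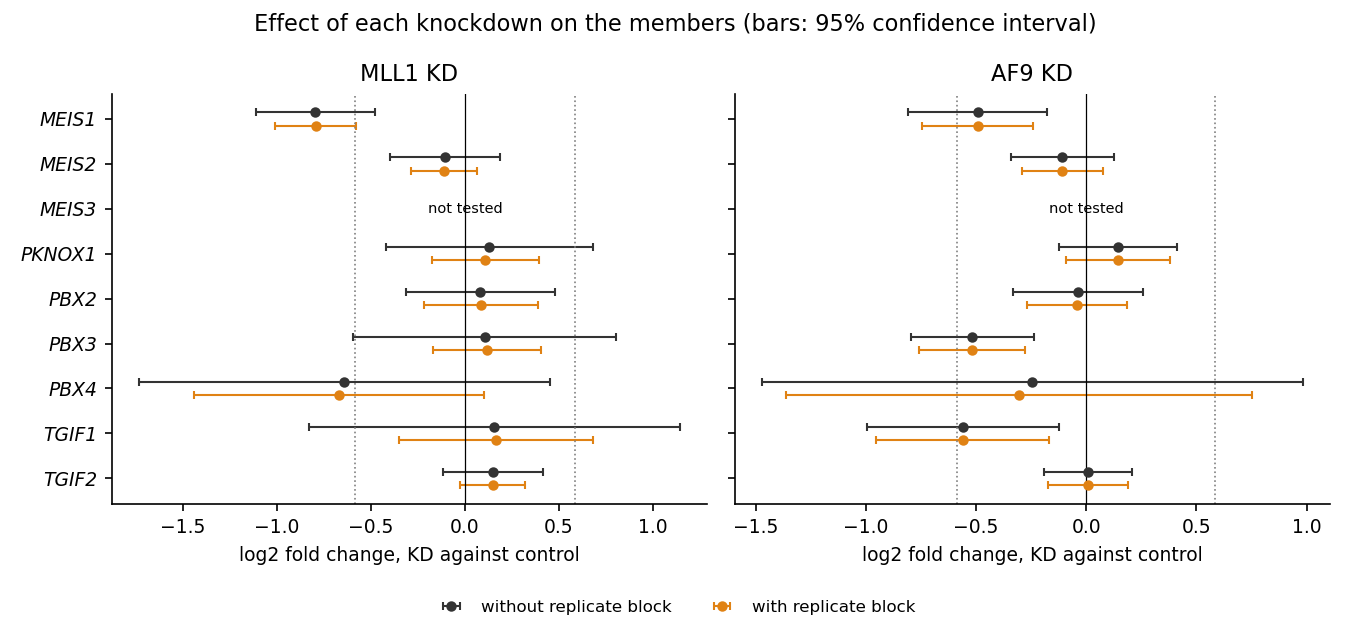
Log2 fold change of each member (x axis, KD against control) in MLL1 KD cells (left) and AF9 KD cells (right), without and with the replicate block, with bars for the 95% confidence interval and dotted lines at a fold change of 1.5. In MLL1 KD cells the intervals of MEIS1 alone exclude 0 (-1.11 to -0.48 without the block), and in AF9 KD cells those of MEIS1, PBX3 and TGIF1 do.

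The ratio of paralogs within a library needs no scaling between libraries. The MEIS1 to MEIS2 ratio of TPM was 0.67, 0.53 and 0.51 in control replicates 1, 2 and 3 and 0.42, 0.32 and 0.32 in the MLL1 KD replicates, so it was lower in each KD library than in any control. The mean difference was -0.68 on the log2 scale (exact permutation p = 0.10, the smallest possible). In the AF9 experiment the ratio was 0.27 and 0.31 in the controls and 0.23 and 0.21 in AF9 KD cells, a difference of -0.39.

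The PBX3 to PBX2 ratio overlapped between groups in the MLL1 experiment (0.79 to 1.24 in control and 0.85 to 1.23 in MLL1 KD cells). In the AF9 experiment it was 0.80 and 0.89 in the controls and 0.58 and 0.64 in AF9 KD cells, a difference of -0.48. The canonical transcript of PBX2 has 54.5% GC, more than that of PBX3, and with GC offsets the fold changes of the pair in AF9 KD cells differed by -0.26. The TGIF1 to TGIF2 ratio was 0.012 to 0.029 in control and 0.012 to 0.028 in MLL1 KD cells. In the AF9 experiment it was 0.033 and 0.034 in the controls and 0.021 and 0.024 in AF9 KD cells. The canonical transcript of TGIF2 has 52.1% GC and that of TGIF1 42.8%. The fold changes of this pair in AF9 KD cells differed by -0.57, and by -0.40 with GC offsets.

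**Figure D3:**
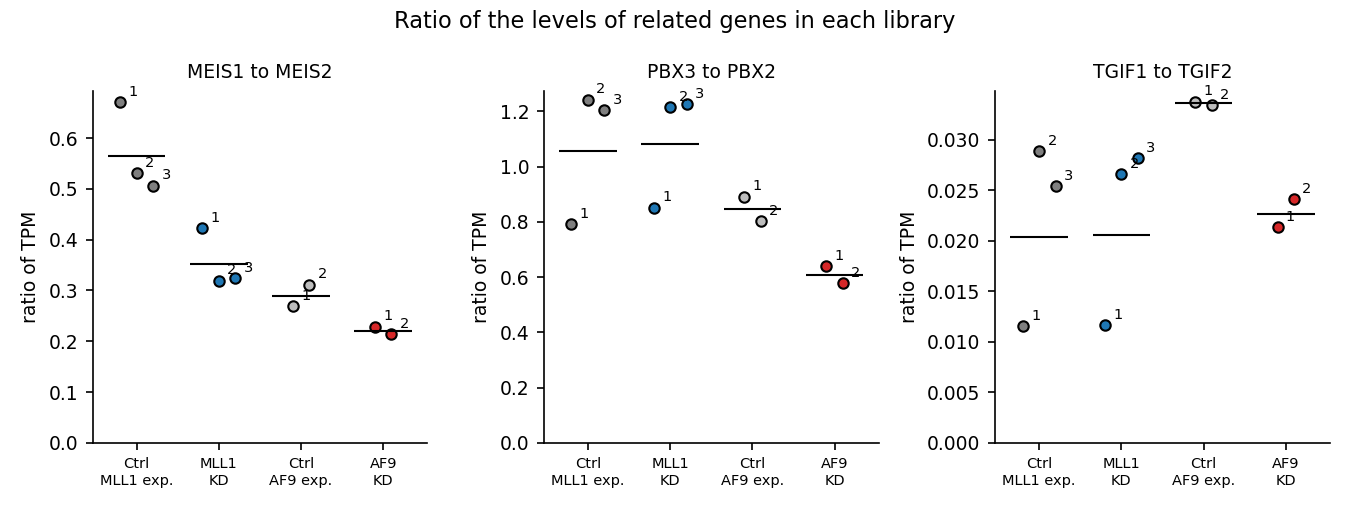
Ratio of the TPM of related genes (y axis) in each library (numbered points) of the 4 groups (x axis), with a line at the geometric mean. The MEIS1 to MEIS2 ratio lies lower in KD than in control libraries in both experiments (0.32 to 0.42 against 0.51 to 0.67 for MLL1), whereas the PBX3 to PBX2 and TGIF1 to TGIF2 ratios lie lower in the AF9 KD libraries and overlap in the MLL1 experiment, where replicate 1 is lowest. Whether these ratios differ between the experiments was not tested.

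Whether the effects of the 2 knockdowns differ was tested in 1 fit over the 10 libraries. No member of 8 passed an adjusted p of 0.05 without the block, where 1.35% of 12729 genes did, and 0 had an unadjusted p under 0.05, compared with 17.3% of genes. DESeq2 also gave 0. With the block 1 of 8 passed, PBX3, where 24.4% of genes did. The PBX3 effect of the MLL1 knockdown minus that of the AF9 knockdown was 0.64 ± 0.41 (SE) without the block (adjusted p = 0.48) and 0.65 ± 0.18 with it (adjusted p = 0.016), and 0.52 ± 0.18 with GC offsets and the block (adjusted p = 0.065). For MEIS1 the difference was -0.29 (-0.75 to 0.17, adjusted p = 0.53). With GC offsets it was -0.44 (-0.87 to -0.016, adjusted p = 0.36), and with GC offsets and the block -0.44 (-0.80 to -0.080, adjusted p = 0.098). With a library left out it ran from -0.46, without AF9 KD replicate 2, to -0.12, without AF9 KD replicate 1. For TGIF1 it was 0.73 (-0.53 to 1.99, adjusted p = 0.57, and 0.10 with the block).

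**Figure D4:**
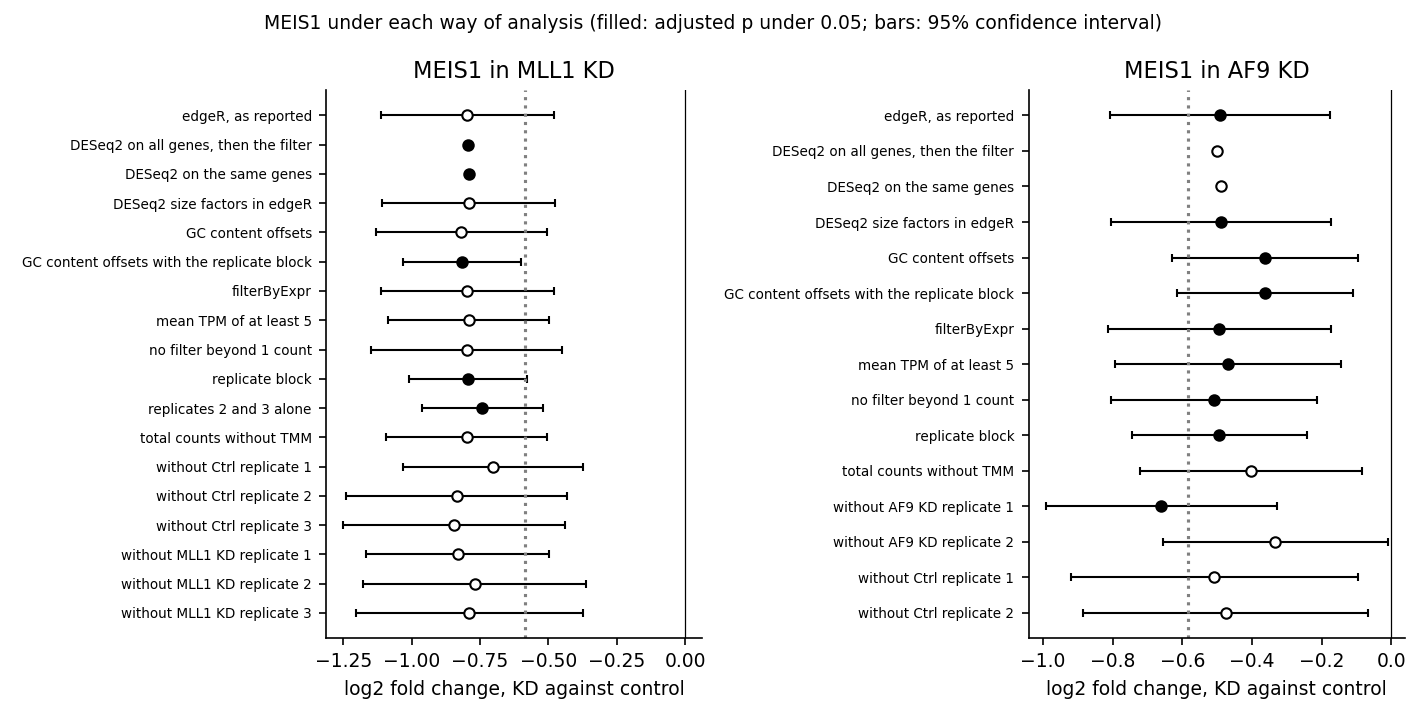
Log2 fold change of MEIS1 (x axis) in MLL1 KD cells (left) and AF9 KD cells (right) under each analysis (y axis), filled where the adjusted p was under 0.05, with 95% confidence intervals except for DESeq2 and a dotted line at a fold change of 1.5. In MLL1 KD cells every estimate lies beyond the dotted line (-0.84 to -0.70), while the adjusted p changes side, and in AF9 KD cells the estimates run from -0.66 to -0.33.

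Genes whose pattern was most like that of MEIS1 were ranked by the root mean square difference of log2 CPM, centred on each experiment's mean, over the 10 libraries and 12728 genes. NUP58 (0.094), MITD1 (0.11) and CBX3 (0.12) came first, compared with a median of 0.44 over all genes. NUP58 encodes a nuclear pore protein and CBX3 the heterochromatin protein HP1 gamma. Their log2 fold changes were -0.73, -0.69 and -0.92 after MLL1 knockdown and -0.44, -0.28 and -0.23 after AF9 knockdown. For PBX4, the other member with a fold change of at least 1.5, the nearest were SNORA5A (0.23), TSSC2 (0.25) and STK32B (0.28), with a median of 0.63.

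The HOX genes encode the DNA-binding partners of MEIS and PBX. Of 39 listed, 26 were tested in the MLL1 experiment, and 0 were called without the block. With it HOXB6 (log2 fold change -0.66) fell and HOXD13 (0.68) rose, and neither was called by DESeq2. With replicates 2 and 3 alone HOXB6 was at -0.50, under the fold threshold. HOXD13 ran from 0.17, without MLL1 KD replicate 1, to 1.15, without control replicate 1, in the fit without the block. For AF9 21 were tested, and HOXD1 and HOXB13 were called, where 13.1% of all genes tested were. HOXD1 fell by 1.79 ± 0.36 (adjusted p = 0.0028) and HOXB13 rose by 0.73 ± 0.26 (adjusted p = 0.048). With GC offsets HOXB13 was at 0.50 (adjusted p = 0.16), and DESeq2 did not call it (0.21). The median log2 fold change of the HOX genes was -0.01 and -0.03, compared with 0.01 over all genes in both experiments.

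Of 10 coactivators and corepressors of PBX and MEIS, 0 were called in MLL1 KD cells with or without the block. After AF9 knockdown 1 of 10 was called, compared with 13.1% of all genes tested. CRTC1, a CREB coactivator that is recruited by MEIS1, rose from 6.22 ± 0.02 to 14.3 ± 3.75 CPM (SD, n = 2), by 1.20 ± 0.21 on the log2 scale (adjusted p = 0.0010), and with GC offsets it was at 0.75 (adjusted p = 0.0085). Of 9 further TALE genes, 2 were tested and 0 were called in each experiment. One of them is IRX5, at 0.41 ± 0.39 (SE) after MLL1 knockdown and -0.29 ± 0.47 after AF9 knockdown. No library had over 3 counts of 6 of the 9 in the MLL1 experiment and of 7 in the AF9 experiment.

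Of 14 genes listed as downstream of HOXA9 and MEIS1, 12 were tested in the MLL1 experiment and 0 were called without the block. Of the 12, 7 had all MLL1 KD libraries above control and 0 below, while groups did not overlap for 17.7% of all genes tested. By DESeq2 3 rose, where 1.51% of genes were called. With the block 5 rose and 1 fell, where 4.72% of genes were called. The largest, by the fit without the block, were ERG (log2 fold change 2.07), the progenitor marker CD34 (1.48), the platelet gene PF4 (1.21) and SOX4 (1.12). DESeq2 called neither CD34 nor PF4 (adjusted p = 0.32 and 0.14). The CD34 libraries overlapped between groups, and its log2 fold change ran from 0.94, without MLL1 KD replicate 1, to 2.47, without control replicate 1. The other 2, named after their values were seen, were MYB (0.59 with the block) and the cyclin gene CCND1 (-0.61 with the block). Of 10 tested in the AF9 experiment 1 was called, compared with 13.1% of all genes tested. This was CD34, which fell by 0.86 ± 0.26 (adjusted p = 0.023). It was not called by DESeq2 (adjusted p = 0.073), and without control replicate 2 it was at -0.52, under the fold threshold. The median over the list was 0.28 for MLL1 and -0.03 for AF9.

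Among 10 tested target genes of MLL fusion proteins, 0 were called in MLL1 KD cells by edgeR without the block. MEF2C rose with the block, from 425 ± 28.7 to 722 ± 33.4 CPM (SD, n = 3, log2 fold change 0.77, adjusted p = 1.85e-07 with the block). DESeq2 without a block also called MEF2C (adjusted p = 9.33e-06). In AF9 KD cells the apoptosis inhibitor BCL2 fell from 31.3 ± 1.93 to 19.9 ± 4.04 CPM (SD, n = 2), by 0.65 ± 0.15 (adjusted p = 0.0058), and with GC offsets it was at -0.54, under the fold threshold. In the TGF-beta and SMAD pathway, in which the TGIF proteins act, 0 of 16 were called in either experiment without the block. With it RXRA, a nuclear receptor, was called in AF9 KD cells at 0.62 (adjusted p = 0.049), and with GC offsets it was at 0.22 (adjusted p = 0.55).

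Of 14 erythroid and megakaryocyte markers, all detected in every library, 0 were called in MLL1 KD cells without the block, and with it ALAS2, the first enzyme of heme synthesis in red cells, fell by 1.78 and the fetal globin gene HBG2 by 0.72. DESeq2 called ALAS2 and did not call HBG2 (adjusted p = 0.24). Their summed level was 5217 to 5751 TPM in control and 4361 to 4484 TPM in MLL1 KD cells. In AF9 KD cells 2 of the 14 were called, compared with 13.1% of all genes tested. HBG2 and HBG1, near-identical genes that counting may not separate, each fell by 0.60 (adjusted p = 0.0030 and 0.0018), whereas ALAS2 rose by 0.58 (adjusted p = 0.00061), just under the fold threshold. Of the 14, 4 had all AF9 KD libraries below control and 5 above, while groups did not overlap for 66% of all genes tested. The median log2 fold change of the 14 was 0.05. The summed level was 36755 to 37003 TPM in control and 25752 to 29835 TPM in AF9 KD cells, and HBG2 (24535 TPM) and HBG1 (9037 TPM) made up most of the control level. The part of this shift in the lower MEIS1 levels was not tested. Of 8 lymphoid markers 2 were tested. CD2 rose with the block in MLL1 KD cells (1.49, adjusted p = 7.41e-05) and was also called by DESeq2 without a block (adjusted p = 2.65e-05). The list summed to 29.1 to 38.4 TPM in control and 53.9 to 56.9 TPM in MLL1 KD cells. It summed to 18.7 to 20.2 TPM in control and 19.9 to 28.5 TPM in AF9 KD cells.

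Monocyte and macrophage markers summed to at most 3.72 TPM in any library. CSF1R was at -0.50 ± 0.47 in MLL1 KD cells, and CD14 was under the filter. Stromal and epithelial markers summed to 64.2 to 85.0 TPM. In the MLL1 experiment 1 of 3 tested was called with the block, compared with 4.72% of all genes tested. This was KRT8, which fell with the block by 0.66 (adjusted p = 0.029), and with replicates 2 and 3 alone it was at -0.46 (adjusted p = 0.063).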

How the data were processed

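The authors filtered the reads with fastp 0.13.1, mapped them to hg38 with HISAT2 2.1.0 and counted them per gene, strand-specifically, with featureCounts 1.6.1 (submitters' notes and methods). The deposited values are whole-number counts without normalization. The annotation behind the symbols is not given in the sources used here. CUT&Tag and PRO-seq data were not analysed here.

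Of 28103 symbols, 25237 matched GENCODE version 44 directly and 735 through RefSeq synonyms. Counts were tested with edgeR 4.0.16 (R 4.3.3, TMM, quasi-likelihood) per experiment among genes whose mean TPM reached 1. DESeq2 1.42.0 was an alternative. Calls needed a fold change of at least 1.5 and a Benjamini-Hochberg adjusted p under 0.05. The floor was 3 counts per library. Intervals are 95% and cover the fit's error. Scripts were tested on simulated data.

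Whether replicate numbers pair libraries was checked from deviations from group means. In the MLL1 experiment same-numbered libraries correlated at 0.65, 0.33 and 0.35, so the block is printed. Replicates 2 and 3 also correlated across numbers (0.36 and 0.37).

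Members and gene lists were chosen with earlier results of these data known. Besides the members and targets, up to 4 genes per list and experiment that were called with or without the block are named, by size of fold change, or the 2 most abundant of a list with none. Names of some listed genes are not reported here.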

Additional observations from a re-analysis of the deposited data

Results flagged for a closer look

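Tested in 1 edgeR fit over the 10 libraries, the effects of the 2 knockdowns differed for 3 named genes of the lists. Of all 12729 genes tested 1.35% passed. Most named genes were picked because they had been called in these same data, so the 3 cannot be compared directly with that share. The effect in MLL1 KD cells minus that in AF9 KD cells was 1.23 ± 0.23 (SE) on the log2 scale for SOX4 (adjusted p = 0.042), 0.86 ± 0.17 for MEF2C (adjusted p = 0.046) and -2.32 ± 0.33 for ALAS2 (adjusted p = 0.022). With the replicate block the adjusted p values were 0.00095, 3.30e-05 and 9.43e-07. With a library left out the difference stayed past the threshold for SOX4 and MEF2C in 1 of 10 cases, that without MLL1 KD replicate 1, and for ALAS2 in 3 of 10, those without replicate 1 of either group or MLL1 KD replicate 3, and the adjusted p reached 0.26, 0.31 and 0.23. With offsets for GC content and no block none of the 3 passed, whereas with these offsets and the block all 3 did. SOX4 also did not pass with no filter beyond 1 count or with total counts in place of TMM, nor MEF2C with edgeR's filterByExpr or with no filter beyond 1 count, and over these alternatives the adjusted p reached 0.062, 0.18 and 0.054 for SOX4, MEF2C and ALAS2.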

How the results depend on the processing

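The number of genes called in MLL1 KD cells, 9, became 218 and 232 with DESeq2 (on all genes and on the same genes), 32 with no filter beyond 1 count, 679 with the replicate block, 665 with GC offsets and the block, and 696 with replicates 2 and 3 alone, an alternative chosen after seeing the data. It was 0 to 53 with a library left out, 53 without MLL1 KD replicate 1. The number of members called, 0, became 1 (MEIS1) with each DESeq2 fit, the block, GC offsets with the block, and replicates 2 and 3 alone, and stayed 0 with any library left out.

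In AF9 KD cells the 1744 called genes became 1036 with GC offsets, 1134 with GC offsets and the block and 3862 without the fold threshold, and 1051 to 1997 with a library left out, 1051 without control replicate 1. The members called, 0, became 2 without the fold threshold and 0 to 1 with a library left out. The AF9 replicates share only a number (correlation 0.16, 2 pairs), and with the replicate block 1957 genes and 0 members were called, while TGIF1 passed the adjusted p (0.015), as with no filter (0.031). Total counts in place of TMM moved the median of all genes by 0.09 and called 438 genes lower and 1415 higher, compared with 675 and 1069, and GC offsets gave 554 and 482.

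The number of members whose effects differed, 0, became 1 (PBX3) with the block and with replicates 2 and 3 alone, and 0 with a library left out. MEIS1, MEIS2, PBX2, PBX4 and TGIF2 in MLL1 KD cells and MEIS1, PKNOX1, PBX3 and TGIF1 in AF9 KD cells kept their direction in each alternative. The sign changed for PKNOX1 in MLL1 KD cells with replicates 2 and 3 alone (-0.036), and in AF9 KD cells for MEIS2 with GC offsets (0.029, and 0.030 with the block), for PBX2 with total counts (0.053) and for TGIF2 with DESeq2 on all genes (-0.00089), GC offsets (-0.029, and -0.030 with the block) and no filter (-0.010). With a library left out MLL1 KD log2 fold changes ran from -0.15 to 0.28 for PKNOX1, -0.12 to 0.33 for PBX3 and -0.14 to 0.45 for TGIF1, and AF9 KD ones from -0.22 to 0.0037 for MEIS2, -0.17 to 0.087 for PBX2, -1.44 to 0.39 for PBX4, -0.043 to 0.061 for TGIF2 and -0.95 to 0.18 for IRX5. The cause of these changes was not tested. Counts of 8 to 33 per library limit PBX4 in the MLL1 experiment.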
